A study of Mus musculus with 8 samples.

Results

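Complement and acute phase genes were followed in inflamed pancreatic islets of mice. The set was given as 9 genes: C3, Cfb, Serping1, C1qa, C1qb, C1qc, Serpina3n, Lcn2 and Saa3. Its members were all probe sets to which the array's annotation gives exactly 1 of these symbols, whatever their values. This found 10 of the 45101 probe sets, which cover 8 of the 9 genes, out of 18193 named genes in all (3 probe sets for C1qb and 1 for each of the others), and all 10 passed the filter on low values. C3 was not analysed here.

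Expression was measured on 8 Affymetrix arrays of islets cut by laser capture from NOD.Scid mice, which form no mature T or B cells of their own, so that every group shares the scid defect. In the diabetogenic arm (days 3, 4 and 8, 1 array each) the mice had received CD4+ BDC2.5 transgenic T cells, which recognise a beta cell antigen, on day 0. In the protected arm (days 3, 4, 5 and 8, 1 array each) the mice had received the same cells and, 1 day before and 2 days after them, an antibody that binds interferon-γ (anti-Ifng). The untreated group was 1 array of NOD.Scid islets without cells or antibody. Each array held RNA pooled from 5 mice, and neither arm was given a control antibody or has a second array for any day. No array of diabetogenic islets on day 5 was analysed here, because, per the submitters' design text, the islets were too edematous to be dissected. Ages were not given in the sources used here.

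Complement is a cascade of plasma proteins that marks targets for phagocytes and attracts leukocytes. C1q, a complex of the chains encoded by C1qa, C1qb and C1qc, starts the classical pathway and is made mainly by macrophages. Cfb encodes factor B, the protease of the alternative pathway convertase, and Serping1 encodes the C1 inhibitor, which blocks C1r and C1s. Both are induced by cytokines, interferon-γ among them, in many cell types. Acute phase proteins are secreted in inflammation, classically by the liver under IL-6 and IL-1 but also by other tissues. Among them, Serpina3n is a serine protease inhibitor, Lcn2 (lipocalin 2) binds bacterial siderophores, and Saa3 is a serum amyloid A protein made outside the liver, for example by macrophages and epithelia.

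The arrays differed in quality along the day axis. Spiked hybridisation controls had median intensities of 1.93 (diabetogenic), 1.475 (protected) and 2.285 (untreated) on the arrays of day 3 and before, and of 551.2 to 1712 on the 5 later arrays. A difference between days 4 to 8 and the earlier arrays therefore cannot be told apart from this change in the controls, whereas arrays of the same day are alike in it. Bright probe sets, those at least 8 times as intense as the median probe set, were 0.9% of the diabetogenic array of day 4, against 2.29% of its protected partner, and 2.06 to 5.35% of the other arrays. The ratio of 3′ to 5′ signal of Actb, a sign of RNA integrity, was 5.54, 2.25 and 13.8 in diabetogenic islets on days 3, 4 and 8, against 5.01, 9.24, 24.2 and 10.5 in protected islets on days 3, 4, 5 and 8 and 1.86 in untreated islets, so that it also differed within the pairs of days 4 and 8. For Gapdh the ratio was 9.11, 2.78 and 19 in diabetogenic islets on days 3, 4 and 8. In protected islets it was 8.49, 10.5, 6.4 and 10.8 on days 3, 4, 5 and 8, and in untreated islets 5.14. By Gapdh the diabetogenic array of day 8 was highest, whereas by Actb the protected array of day 5 was. The part of RNA quality in the results was not tested. As a check of the islet label, 13 beta cell markers summed to intensities of 3852 to 8003 on the 8 arrays. Ins2 alone read 3409 to 6359, so this sum says little about the other markers. The median marker was below untreated throughout, by -0.53 (day 3), -3.95 (day 4) and -3.85 (day 8) in diabetogenic islets (log2). In protected islets it was -0.125 (day 3), -2.67 (day 4), -1.83 (day 5) and -2.46 (day 8). The 15 acinar markers summed to 279.9 to 6614, so exocrine RNA was also present. In such tissue pools fewer cells of a type and less RNA per cell cannot be told apart.

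The regions just upstream of Saa3 and Serpina3n, the members with the largest differences between the arms, of C1qc, the member that moved most with time, and of Lcn2 are shown so that the differences can be set beside sequence. Each run is the 250 bases before the RefSeq start of the gene on GRCm38.p6, 5′ to 3′ on the gene's strand, and capitals mark motif matches. Of the 9 genes listed, 6 had an entry.
Saa3, chr7:46715677-46715926, minus strand: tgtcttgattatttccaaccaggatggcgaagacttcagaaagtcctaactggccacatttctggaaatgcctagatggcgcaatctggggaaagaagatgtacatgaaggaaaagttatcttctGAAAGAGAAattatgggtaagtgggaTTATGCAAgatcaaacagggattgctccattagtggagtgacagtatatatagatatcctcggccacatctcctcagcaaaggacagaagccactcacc
Serpina3n, chr12:104406458-104406707, plus strand: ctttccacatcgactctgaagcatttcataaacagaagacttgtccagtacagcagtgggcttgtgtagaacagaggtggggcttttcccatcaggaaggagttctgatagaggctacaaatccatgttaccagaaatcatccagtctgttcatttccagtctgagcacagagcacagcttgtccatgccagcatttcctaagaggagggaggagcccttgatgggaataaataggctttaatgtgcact
Lcn2, chr2:32387740-32387989, minus strand: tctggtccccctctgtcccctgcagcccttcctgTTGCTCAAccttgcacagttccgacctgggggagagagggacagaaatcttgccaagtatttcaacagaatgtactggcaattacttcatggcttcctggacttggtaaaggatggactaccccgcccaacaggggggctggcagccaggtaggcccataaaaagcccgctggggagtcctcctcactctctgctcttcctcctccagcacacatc
C1qc, chr4:136892915-136893164, minus strand: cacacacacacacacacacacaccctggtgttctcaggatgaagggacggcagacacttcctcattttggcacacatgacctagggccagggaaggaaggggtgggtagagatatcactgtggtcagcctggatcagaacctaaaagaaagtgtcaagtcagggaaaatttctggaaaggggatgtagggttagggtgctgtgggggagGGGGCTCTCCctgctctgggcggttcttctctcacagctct

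Motifs were searched on both strands in this 250-base window. They were the γ-activated site TTCNNNGAA bound by STAT dimers, the interferon element half-sites GAAANNGAA, the C/EBP motif TTGCNNAA, and the κB consensus. The Saa3 window held the half-sites, starting 125 bases before the start, and a C/EBP match, as its reverse complement, at 99 bases, with no overlap between the matches. The Lcn2 window held a C/EBP match at 216 bases and the C1qc window a κB match at 41 bases. The Serpina3n window held none of the 4, and the γ-activated site was in none of the 4 windows. Among 32851 windows of the same length the γ-activated site was found in 7.02%, the half-sites in 7.13%, the C/EBP motif in 9.56% and the κB motif in 3.9%. A match is a description of letters only, and binding was not measured.

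Intensities were compared as log2(intensity + 2.155), the added pseudocount being the median over arrays of the 25th percentile, so folds of dim genes are understated. The first question was whether any member differed between the diabetogenic and the protected arm on the matched days 3, 4 and 8, fitted with day as a block in limma. None of the 8 members passed an adjusted p of 0.05, and neither did most genes: 18 of 16396 passed, or 0.11%. At an unadjusted p under 0.05 there were 2 of 8 members, Saa3 (higher) and Serpina3n (lower), against 8.97% of all genes. The spread in this fit has 2 residual degrees of freedom of a gene's own and 29.99 borrowed from all genes.

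**Figure D1:**
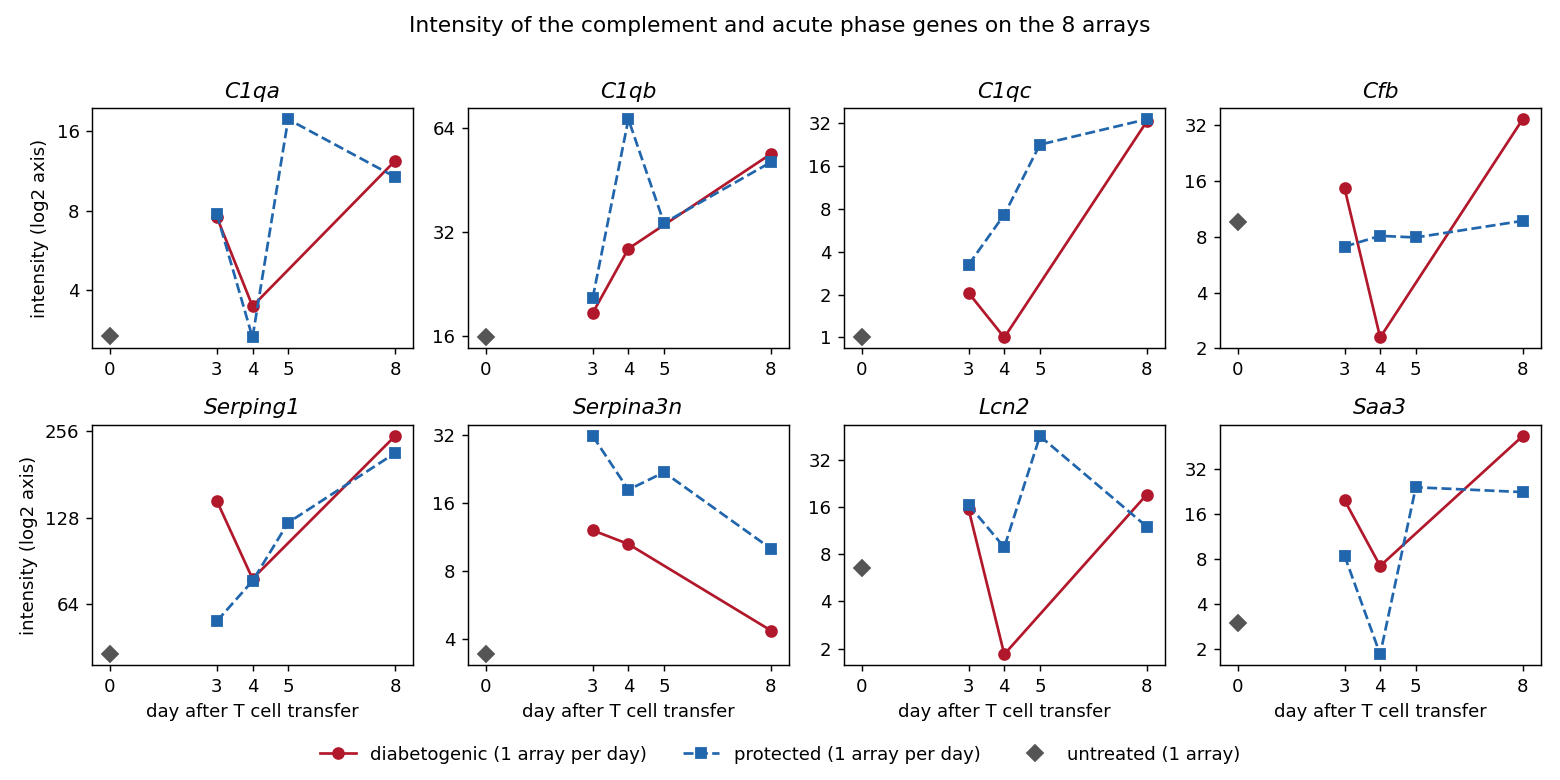
Intensity (log2 axis) of the 8 measured genes against day after T cell transfer, with 1 point per array. Circles are diabetogenic, squares protected and the diamond untreated islets at day 0, and C1qb is read by 1434366_x_at. Serpina3n was higher in the protected arm and Saa3 in the diabetogenic arm on days 3, 4 and 8, whereas the C1q chains reached similar values in both arms on day 8.

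The C1q chains were brighter on day 8 than in untreated islets in both arms, and C1qc and C1qb were lower in diabetogenic than in protected islets on day 4. None of the arm differences passed the test. C1qc (1449401_at) had intensities of 2.05, 1 and 32.6 in diabetogenic islets on days 3, 4 and 8, against 3.24, 7.26, 22.5 and 33.8 in protected islets on days 3, 4, 5 and 8 and 1, the bottom of the scale, in untreated islets. The arms were thus nearly equal on days 3 and 8 and furthest apart on day 4. The diabetogenic minus protected differences were -0.36, -1.58 and -0.05 (log2) on days 3, 4 and 8, and the fit over the 3 days gave -0.66 ± 0.38 (SE, adjusted p = 0.611 by limma, 95% interval -1.43 to 0.11). Without day 4 it was -0.20.

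C1qa (1417381_at) had intensities of 7.56, 3.47 and 12.4 in diabetogenic islets on days 3, 4 and 8, against 7.75, 2.64, 17.8 and 10.7 in protected islets on days 3, 4, 5 and 8 and 2.67 in untreated islets. Both arms dipped on day 4, and its arm difference was 0.12 ± 0.35 (SE, log2, adjusted p = 0.946 by limma, interval -0.60 to 0.85).

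C1qb was read by 3 probe sets that disagreed. The gene was represented by 1434366_x_at, which had the highest mean log2 value, although 1437726_x_at had the higher mean intensity (37.14 against 36.25). Probe set 1434366_x_at had 18.65, 28.6 and 53.75 in diabetogenic islets on days 3, 4 and 8, against 20.6, 67.7, 33.9 and 50.9 in protected islets on days 3, 4, 5 and 8 and 15.8 in untreated islets. A second, 1437726_x_at, had 12.8, 6.21 and 113.7 in diabetogenic islets, against 10.8, 34.6, 41.7 and 70.4 in protected islets and 7.04 in untreated islets. The third, 1417063_at, stayed between 2.5 and 6.27 on all 8 arrays, near the array medians of 3.14 to 3.96. The suffix of the brighter pair marks probes that may be shared with other transcripts. The arm differences were -0.41 ± 0.52 and -0.42 ± 0.52 for the brighter pair and 0.34 ± 0.34 for the dim one (SE, log2, adjusted p = 0.86, 0.86 and 0.813 in the limma fit of every probe set). The largest difference on a single day was that of 1437726_x_at on day 4, -2.14 (log2).

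Some macrophage markers moved with C1qc. The summed intensity of 27 such genes was 701.4, 386.8 and 3907 in diabetogenic islets on days 3, 4 and 8, against 821.3, 2998, 3294 and 3605 in protected islets on days 3, 4, 5 and 8 and 169.9 in untreated islets. The bright markers Csf1r, Lyz1, Laptm5 and Tyrobp make up most of the larger sums. Csf1r, the receptor for the macrophage growth factor, named after its values were seen, had 80.3, 114.3 and 1067 in diabetogenic islets, against 129.5, 1386, 809.3 and 818.9 in protected islets and 23.9 in untreated islets. On the diabetogenic array of day 4, where C1qc was listed at 1, the macrophage sum was also the lowest of the 7 injected arrays. The median of the 27 markers above untreated was 0.75, 0.14 and 0.70 (log2) in diabetogenic islets on days 3, 4 and 8, against 1.315, 1.005, 2.265 and 1.597 in protected islets on days 3, 4, 5 and 8. The median marker was thus no higher on day 8 than on day 3 in diabetogenic islets, unlike C1qc. C1qa did not share the pattern of the sum on the protected array of day 4, where it was at 2.64 beside a macrophage sum of 2998. Of the 27 markers 24 were lower in the diabetogenic arm on the matched days, with a median difference of -0.52 against -0.07 for all genes tested, and 1 passed: the scavenger receptor Cd163, at 2.29, 3.47 and 1 in diabetogenic islets, against 10.1, 35.03 and 6.69 in protected islets on days 3, 4 and 8 (-1.89 ± 0.36, SE, log2, adjusted p = 0.0172 by limma). The lowest value of a macrophage marker was 1, the bottom of the scale, for Cd163 on the diabetogenic array of day 8. The part that macrophage number has in the C1q values was not tested.

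Cfb and Serping1, the cytokine-induced complement genes, were higher in the diabetogenic arm on day 3, and less alike afterwards. Serping1 (1416625_at) had 146.1, 78.6 and 244.9 in diabetogenic islets on days 3, 4 and 8, against 56.1, 77.2, 122.8 and 213.9 in protected islets on days 3, 4, 5 and 8 and 43.0 in untreated islets. All 7 injected arrays lay above the untreated one, and the arms stood apart on day 3 alone, by 1.35 (log2), against 0.03 on day 4 and 0.19 on day 8. Over the 3 days the difference was 0.52 ± 0.79 (SE, log2, adjusted p = 0.866 by limma, interval -1.08 to 2.13), and without day 3 it was 0.11. It was 1.33 after quantile normalization and 1.43 after cyclic loess (adjusted p = 0.662 and 0.174 by limma).

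Cfb (1417314_at) had 14.6, 2.29 and 34.4 in diabetogenic islets on days 3, 4 and 8, against 7.08, 8.09, 7.93 and 9.75 in protected islets on days 3, 4, 5 and 8 and 9.62 in untreated islets. The protected arrays lay within a narrow band around the untreated value, while the diabetogenic arrays scattered on both sides of it. The arm differences were 0.86, -1.21 and 1.62 (log2) on days 3, 4 and 8, and 0.43 ± 0.43 over the 3 days (SE, adjusted p = 0.787 by limma, interval -0.45 to 1.30). Without day 4 the Cfb difference was 1.24 (adjusted p = 0.465 by limma), and without day 8 it turned to -0.17. The array that holds the low Cfb value, diabetogenic day 4, is the one with the fewest bright probe sets, and their part in the value was not tested.

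Saa3 and Serpina3n differed between the arms in opposite directions on each matched day. Saa3 (1450826_a_at) had 19.8, 7.2 and 53.4 in diabetogenic islets on days 3, 4 and 8, against 8.44, 1.84, 24.2 and 22.5 in protected islets on days 3, 4, 5 and 8 and 2.97 in untreated islets. It was 2.08-, 2.34- and 2.25-fold higher in diabetogenic islets on days 3, 4 and 8, although the arms overlap across days, since diabetogenic day 3 (19.8) lay below protected day 8 (22.5). The protected value of day 4 (1.84) lay below its array median of 3.52 and below untreated. The day 4 fold is therefore partly set by the pseudocount, and the evenness of the 3 folds should not be relied on. The fit gave 1.15 ± 0.39 (SE, log2, unadjusted p = 0.00638, adjusted p = 0.404 by limma, interval 0.35 to 1.95).

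Serpina3n (1419100_at) had 12.1, 10.5 and 4.35 in diabetogenic islets on days 3, 4 and 8, against 31.8, 18.35, 21.9 and 10.1 in protected islets on days 3, 4, 5 and 8 and 3.41 in untreated islets. It was above the untreated value on all 7 injected arrays, highest on day 3 in both arms, and lower in the diabetogenic arm on each matched day, by -1.25, -0.69 and -0.91 (log2). The fit gave -0.95 ± 0.39 (SE, unadjusted p = 0.0217, adjusted p = 0.494 by limma, interval -1.75 to -0.15). Serpina3n belongs to a cluster of near-identical genes on chromosome 12, with Serpina3m and Serpina3k beside it, so its probes may read paralogs.

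Lcn2 (1427747_a_at) had 15.45, 1.84 and 19.2 in diabetogenic islets on days 3, 4 and 8, against 16.5, 8.85, 45.4 and 12 in protected islets on days 3, 4, 5 and 8 and 6.56 in untreated islets. Its highest value was on the protected array of day 5, which has no diabetogenic partner, and its lowest on the diabetogenic array of day 4. The arm differences were -0.09, -1.46 and 0.60 (log2), and -0.32 ± 0.41 in the fit (SE, adjusted p = 0.84 by limma). Without day 4 the Lcn2 difference turned to 0.26 (log2, adjusted p = 0.957 by limma). Lcn2 is also stored in neutrophil granules. The 12 neutrophil markers tested summed to 60.7, 59.4 and 93.9 in diabetogenic islets, against 84.8, 412.8, 553.1 and 202.7 in protected islets and 53.1 in untreated islets, and most of the protected sums of days 4, 5 and 8 was Chil3, which macrophages also make. Of the 8 granule genes in the list, Ngp, Ltf, Mpo, Elane, Prtn3, Ctsg and Mmp8 lay between 1 and 13.1 on the 8 arrays. The other one, Mmp9, and S100a8, a calcium-binding protein of neutrophils and monocytes, were highest on the same protected array of day 5 as Lcn2, Mmp9 at 21.6 against 5.56 in untreated islets and S100a8 at 38.2 against 4.32 in untreated islets. Of the 12 neutrophil markers, 8 were above untreated on the protected array of day 5, and 8 on the diabetogenic array of day 8. Their median difference from untreated was 0.33 (log2) on the former and 0.41 on the latter. The medians of all genes there were -0.02 and -0.11. On protected day 5, Csf3r (6.23 against 10.1), Ctsg (2.3 against 5.45), Mmp8 (4.39 against 4.91) and Elane (3.69 against 3.9) were below untreated. These neutrophil genes were named after their values were seen. The neutrophil share of the Lcn2 signal was not tested.

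**Figure D2:**
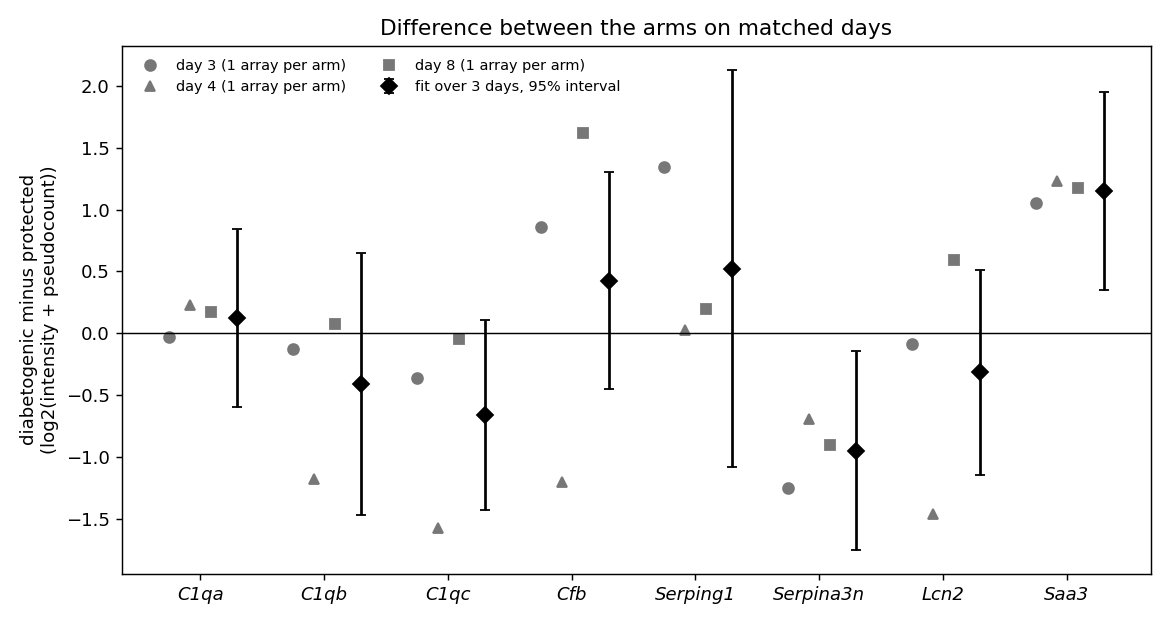
Diabetogenic minus protected difference, log2(intensity + pseudocount), for each gene on days 3, 4 and 8 (grey symbols, 1 array per arm) and from the fit over the 3 days (black diamonds with 95% intervals). Saa3 lies above 0 and Serpina3n below 0 on all 3 days, and C1qb, C1qc, Cfb and Lcn2 have their lowest point on day 4.

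Counted by day, members at least 2-fold apart between the arms changed from one day to the next. On day 3, Serping1 and Saa3 exceeded the protected array by at least 2-fold, against 1.34% of all genes, and Serpina3n was at least 2-fold lower, against 0.506%. On day 4, Saa3 was higher, against 5.78% of genes, and C1qb, C1qc, Cfb and Lcn2 were lower, against 14.1%. On day 8, Cfb and Saa3 were higher, against 9%, and no member was lower, against 13.9%. The medians over the 8 members were -0.06, -0.94 and 0.18 (log2) on days 3, 4 and 8, where those of all genes were -0.02, -0.13 and -0.10. The difference had 1 sign on all 3 days for 4 of 8 members (C1qc, Serping1, Serpina3n and Saa3), against 31.8% of genes. In none of the 8 members did the 3 diabetogenic arrays and their 3 protected partners fail to overlap, which 6% of genes did.

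The second question was which members stood above untreated islets. On day 3, C1qa, Serping1, Serpina3n, Lcn2 and Saa3 were at least 2-fold above the untreated array in diabetogenic islets (2.81% of all genes were), and in protected islets C1qa, Serpina3n, Lcn2 and Saa3 were (2.2% of genes). The arms share the untreated array. On day 4, Serpina3n alone was 2-fold higher in diabetogenic islets (9.81% of genes), with Cfb and Lcn2 at least 2-fold lower (26% of genes), and C1qb, C1qc and Serpina3n were higher in protected islets (10.1%). On day 5, every member but Cfb was at least 2-fold higher in protected islets (9.76%). On day 8, 7 members, all but Serpina3n, stood at least 2-fold above untreated in the diabetogenic arm (14.3%), and 6 members, all but Cfb and Lcn2, in protected islets (9.76%).

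Day 8 held several of the large differences. Saa3 was 10.8-fold higher than untreated in diabetogenic islets and 4.81-fold higher in protected islets that day, and the C1qb probe set 1437726_x_at was 12.6-fold and 7.89-fold higher. C1qc stood at 32.6 in diabetogenic islets and 33.8 in protected islets against an untreated value at the bottom of the scale, so that its fold is set by the pseudocount and is not given. Serping1, Serpina3n and C1qb as read by 1434366_x_at were above untreated on all 7 injected arrays, as were 8.87% of genes. The C1qb probe set 1437726_x_at read 6.21 on the diabetogenic array of day 4 against 7.04 in untreated islets. C1qa, C1qc, Lcn2 and Saa3 were above untreated on 6 of the 7 injected arrays, and Cfb on 3.

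Averaged over days, these differences did not pass a test in which the lone untreated array is assumed to vary like the arrays within an arm. This fit has no day term, so that spread includes the changes between days and the split in spiked controls. A member that moves with time, such as C1qc, is thus held to a wider spread. Not passing therefore does not show that a member equals untreated. In the comparison of diabetogenic with untreated islets 0% of the 16396 genes passed by limma, with 450 (2.74%) at an unadjusted p under 0.05. Among the members Saa3 differed most, by 2.14 ± 1.11 (SE, log2, adjusted p = 0.894). In the comparison of protected with untreated islets 0% of genes passed by limma, with 371 (2.26%) at an unadjusted p under 0.05. C1qc differed by 2.21 ± 1.13 and Serpina3n by 1.93 ± 0.81 (SE, log2, adjusted p = 1 for both), and Cfb by -0.19 ± 0.90 (interval -2.10 to 1.72). With the split in spiked controls as a block, the C1qc difference was 0.20 in the diabetogenic arm (1.29 without the block) and 0.98 in the protected arm, and that of C1qb was 0.15 in the diabetogenic arm (0.87 without the block) and 0.40 in the protected arm (1.22 without it), while Saa3 stood at 1.99 in the diabetogenic arm and Serpina3n at 2.52 in the protected arm.

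The third question was how the members moved with time over the 7 injected arrays. C1qc had the steepest slope, 0.61 ± 0.13 per day (SE, log2, unadjusted p = 0.000217, adjusted p = 0.366 by limma), and was the one member whose slope passed under any alternative: after cyclic loess normalization its adjusted p was 0.0316, while over all alternatives it ran from 0.0316 to 0.999. With 1 probe set per gene, Saa3 followed with 0.37 ± 0.16 (adjusted p = 0.554 by limma), and Serpina3n had the one negative slope, -0.25 ± 0.13 (adjusted p = 0.567 by limma). The other slopes were 0.09 to 0.30 per day. The C1qb probe sets disagreed, at 0.21 ± 0.18 (1434366_x_at), 0.56 ± 0.18 (1437726_x_at) and 0.006 ± 0.086 (1417063_at). Their adjusted p was 0.738, 0.476 and 0.989 in the limma fit of every probe set, so 1437726_x_at was steeper than Saa3. In this fit 0% of genes passed, with 1475 at an unadjusted p under 0.05. Over the 5 arrays with high spiked controls alone, which leaves out day 3, the slopes were 0.63 for C1qc, 0.57 for Saa3 and -0.23 for Serpina3n (adjusted p = 0.0752, 0.21 and 0.911 by limma). The difference between the arms' slopes passed in 0% of genes by limma (327 at an unadjusted p under 0.05), and its sign changed under 1 or more alternatives in every member.

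**Figure D3:**
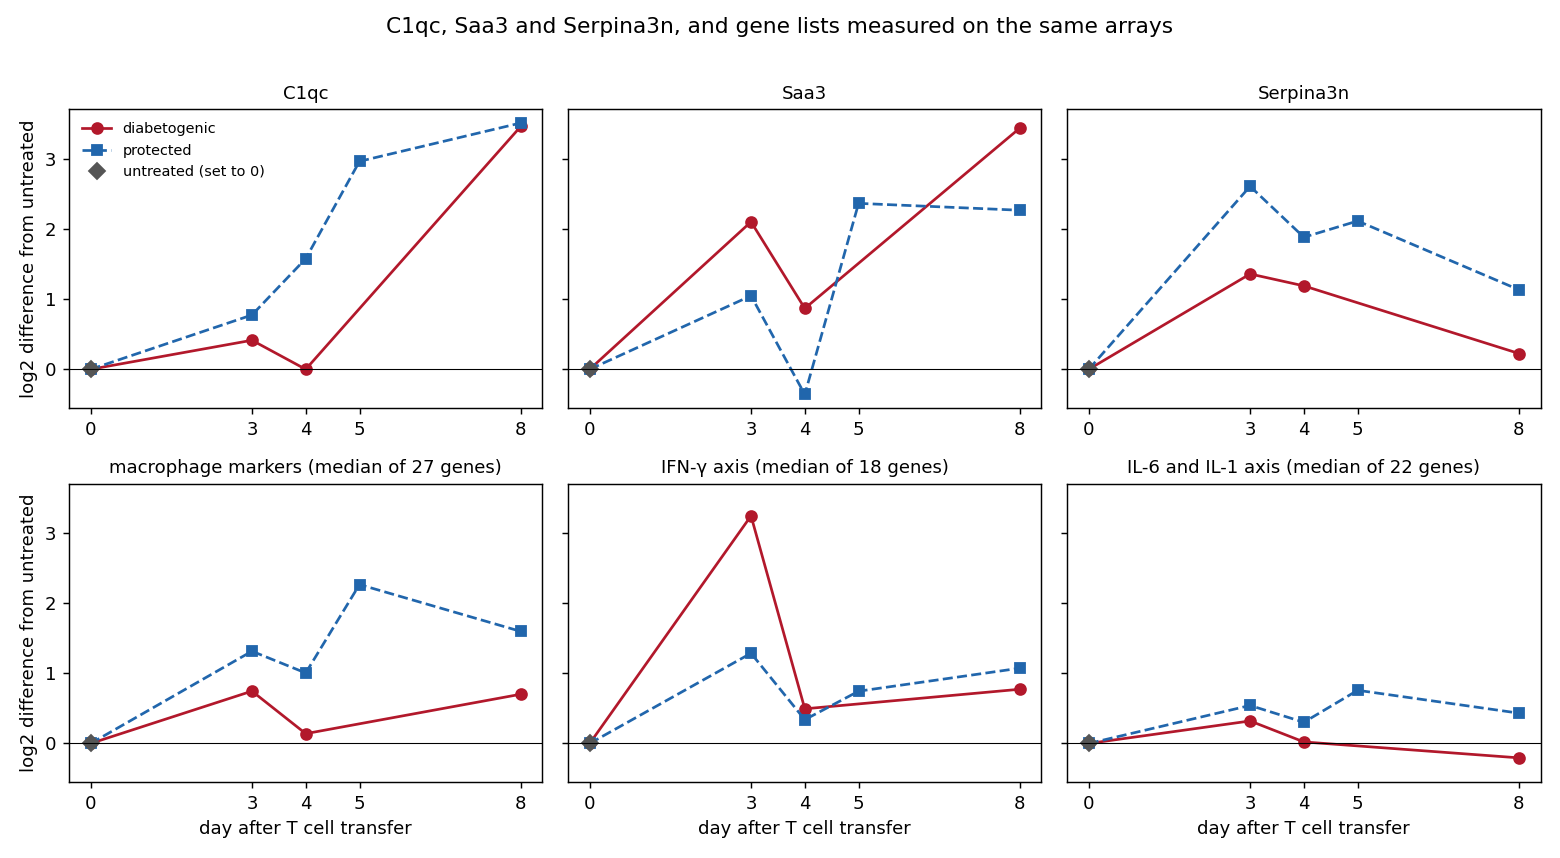
Log2 difference from the untreated array (set to 0) against day after transfer for C1qc, Saa3 and Serpina3n (upper panels) and for the median of the macrophage marker, interferon-γ axis and IL-6 and IL-1 axis lists (lower panels), circles for diabetogenic and squares for protected arrays. C1qc ended nearly level in both arms, at heights set by the pseudocount because its untreated value was at the bottom of the scale. The interferon-γ list peaked at 3.24 on the diabetogenic array of day 3.

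Most genes of the interferon-γ axis list (the cytokine, its receptors and its targets) separated the arms on day 3. On that day 14 of the 18 were higher in diabetogenic islets, 13 of them at least 2-fold. The cytokine Ifng was at 43.8 against 27.6 in protected islets. The receptors Ifngr1 (6.72 against 9.66) and Ifngr2 (5.55 against 5.87) were lower, as were Socs1 and Ciita. The 18 tested genes had a median 3.24 above untreated (log2) in diabetogenic islets and 1.29 in protected islets on day 3, and 0.77 and 1.07 on day 8. On the matched days 14 of the 18 were higher in the diabetogenic arm, with a median of 0.70, and 1 passed: Gbp6, a guanylate-binding protein, at 117.7, 24.5 and 30.8 in diabetogenic islets, against 12.4, 3.33 and 12.2 in protected islets on days 3, 4 and 8 (2.17 ± 0.46, SE, log2, adjusted p = 0.0383 by limma). Serping1 shared with this list its separation of the arms on day 3, and Saa3 alone among the members was over 2-fold higher in diabetogenic islets on all 3 days.

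The IL-6 and IL-1 axis, which drives the liver's acute phase response, had more genes lower than higher in the diabetogenic arm. Of 22 tested genes 17 were lower, with a median of -0.29, and none passed. The inhibitor of NF-κB, Nfkbia, differed by -1.32 ± 0.77 and the transcription factor Cebpd by -1.21 ± 0.48 (SE, log2, adjusted p = 0.616 and 0.472 by limma). Cebpd had 37.25, 10.4 and 9.46 in diabetogenic islets on days 3, 4 and 8, against 53.75, 52.7, 52.1 and 21.25 in protected islets on days 3, 4, 5 and 8 and 10.4 in untreated islets. Its protected arrays were all above the untreated one, and the diabetogenic array of day 3 alone stood clearly above it. The cytokine Il6 itself, named after its values were seen, was dim, at 1.1 to 6.79 on the 8 arrays.

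Socs3, the feedback inhibitor of IL-6 receptor signalling, was among the genes most like Serpina3n. Across the 8 arrays the 5 genes with the highest Pearson r to Serpina3n were Ccna1 (0.94), Ldha (0.93), Socs3 (0.91), Irak2 (0.90) and Bcl3 (0.90), as a description over arrays that share day, spike level and pooled mice. Socs3 had 56.9, 15.7 and 13.6 in diabetogenic islets on days 3, 4 and 8, against 76.6, 62.3, 74.85 and 37.2 in protected islets on days 3, 4, 5 and 8 and 9.43 in untreated islets (-1.20 ± 0.52, SE, log2, adjusted p = 0.508 by limma). Like Serpina3n it was lower in diabetogenic islets on each matched day and above untreated on all 7 injected arrays. Genes named by their r were picked on these same arrays, so a shared order of values is no separate evidence of a link.

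The other members had other companions. The mean of the C1q chains was most like Syk (0.99), a kinase of immune receptor signalling, Dgkz (0.99), Tlr1 (0.99), a Toll-like receptor, Trpv2 (0.98) and Aurka (0.98). Syk had 3.35, 3.25 and 31.7 in diabetogenic islets on days 3, 4 and 8, against 4.24, 11.3, 36.65 and 49.35 in protected islets and 1.3 in untreated islets, so it too was late in the diabetogenic arm. Saa3 was most like P2ry14 (0.96), Artn (0.95), Procr (0.94), Tmem106a (0.94) and Ly6e (0.94), and Serping1 most like Ankrd23 (0.99), Procr (0.97), the endothelial protein C receptor, Dock5 (0.96), Hpgd (0.96) and the T cell chemokine Ccl5 (0.96). Procr stood in both sets, and Saa3 and Serping1 themselves had an r of 0.87. Among the members the highest r was that of C1qa and Saa3, 0.88, and C1qa and Lcn2 had 0.83. Within the C1q chains r was 0.75 for C1qa and C1qc, 0.73 for C1qb and C1qc, and 0.19 for C1qa and C1qb. The C1q mean thus joins chains that were not all alike. Lcn2 was most like Mvp (0.99), Ranbp1 (0.98), Igha (0.97), Cbl (0.96) and Ttc7 (0.96). Cfb was most like Usp9y (0.97), Atp4b (0.96), Gask1b (0.96), Mzf1 (0.95) and Yod1 (0.95), all of them dim, at 1 to 11.4. Serpina3n had an r of -0.44 to 0.34 to the other members.

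The rest of the complement system was mostly dim. In the classical and lectin pathways 9 genes were tested, each with a positive arm difference (median 0.28, range 0.11 to 0.77), and none passed. The proteases C1s1 and C1ra, which C1q activates, differed by 0.77 ± 0.34 and 0.57 ± 0.32 (SE, log2, adjusted p = 0.518 and 0.611 by limma). C1s1 had 8.49, 1.81 and 10.4 in diabetogenic islets on days 3, 4 and 8, against 4.76, 1.18 and 2.47 in protected islets on those days and 6.31 in untreated islets. C2, the neighbour of Cfb on chromosome 17, had 18.9, 3.14 and 7.58 in diabetogenic islets, against 7.9, 2.64 and 10.3 in protected islets on the matched days, and so matched the day 3 but not the day 8 separation of Cfb. C2 was chosen after its values were seen.

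In the alternative and terminal pathway 3 of 6 tested genes were higher and 3 lower in the diabetogenic arm, with none passing. C6, a part of the membrane attack complex, differed by 0.88 ± 0.33, and Cfp (properdin), which stabilises the alternative convertase, by -0.86 ± 0.38 (SE, log2, adjusted p = 0.449 and 0.511 by limma). Among 12 inhibitors 6 were higher and 6 lower, with none passing. Clusterin (Clu), which blocks the membrane attack complex, differed by -1.13 ± 0.98, and Cfi, the protease that degrades C3b, by -0.78 ± 0.36 (SE, log2, adjusted p = 0.745 and 0.534 by limma). Cfi had 4.47, 3.73 and 7.83 in diabetogenic islets on days 3, 4 and 8, against 6.53, 8.61, 15.7 and 19.0 in protected islets on days 3, 4, 5 and 8 and 3.91 in untreated islets.

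Of 10 complement receptors tested, 7 were lower in the diabetogenic arm, with a median of -0.70, and none passed. Itgax, a chain of complement receptor 4 on dendritic cells and macrophages, came nearest, at 10.04, 1.16 and 4.32 in diabetogenic islets on days 3, 4 and 8, against 19.2, 9.53, 41.7 and 30.2 in protected islets on days 3, 4, 5 and 8 and 3.2 in untreated islets (-1.65 ± 0.39, SE, log2, adjusted p = 0.11 by limma). Calr, which also serves as a cell surface partner of C1q, differed by -1.22 ± 0.51 (SE, log2, adjusted p = 0.504 by limma). The anaphylatoxin receptors, named after their values were seen, had the same direction: C3ar1 had 2.26, 2.26 and 5.33 in diabetogenic islets, against 3.43, 14.5, 26.3 and 10.1 in protected islets and 1.41 in untreated islets, and C5ar1 had 2.33, 1.65 and 1.78, against 3.27, 6.86, 16.0 and 6.92 in protected islets and 2 in untreated islets. These receptors are carried by myeloid cells, and the share of the macrophage signal in them was not tested.

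Among 27 further acute phase genes 12 were higher and 15 lower in the diabetogenic arm, with a median of -0.05, and none passed. The metallothioneins Mt1 and Mt2, which bind zinc, differed by -1.20 ± 1.08 and -1.16 ± 0.89 (SE, log2, adjusted p = 0.755 and 0.712 by limma). Mt2 had 186.5, 61.9 and 99.5 in diabetogenic islets on days 3, 4 and 8, against 340.2, 244.4, 329.2 and 159.4 in protected islets on days 3, 4, 5 and 8 and 109.9 in untreated islets. Its order of arms is that of Serpina3n. The liver's serum amyloids Saa1 and Saa2, neighbours of Saa3 in its gene cluster and named after their values were seen, differed by 0.70 ± 0.34 and 0.66 ± 0.38 (SE, log2, adjusted p = 0.545 and 0.615 by limma), at 1.11 to 13.4 on the 8 arrays. Of the 7 hepatocyte markers tested, Ttr, which islet cells also make, read 87.7 to 3069.5 over the 8 arrays, and the other 6, albumin (Alb) among them, lay between 1.23 and 13.3.

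**Figure D4:**
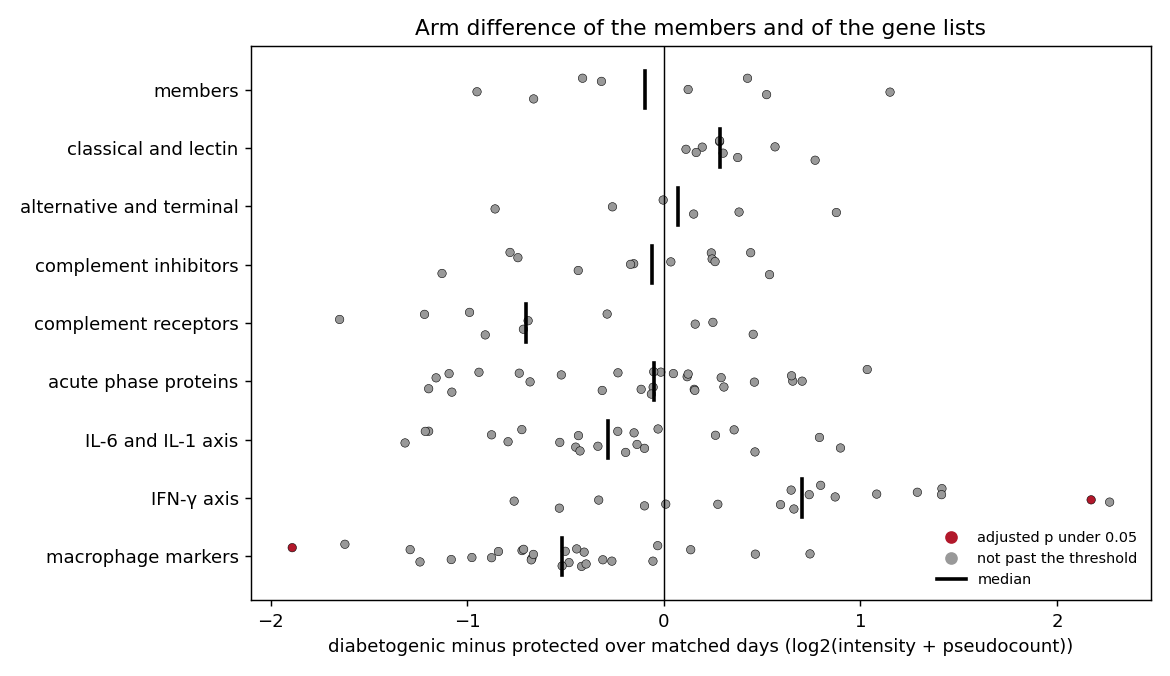
Diabetogenic minus protected difference over the matched days, log2(intensity + pseudocount), with 1 point per tested gene, for the members and for 8 gene lists; vertical bars are medians and red points passed an adjusted p of 0.05. The interferon-γ axis is centred at 0.70 and the complement receptors and macrophage markers at -0.70 and -0.52, with Gbp6 and Cd163 the red points.

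Some markers of other cell types also differed between the arms. Averaged over the matched days, all 15 acinar markers were lower in diabetogenic islets (median -1.95, none passing, Cela1 -2.55 and Prss2 -2.37), but on day 3 itself 10 of the 15 were higher, and the medians on days 3, 4 and 8 were 0.16, -3.80 and -2.43. All 13 beta cell markers were lower on average (median -0.59, none passing, Ero1b -1.87 and Iapp -1.33), with medians of -0.08, -0.97 and -0.90 on those days. Of 14 stromal markers 9 were lower (median -0.29), and Timp1 (-2.87, adjusted p = 0.00161 by limma) and Fn1 (-2.10, adjusted p = 0.0122 by limma) passed. Of 12 neutrophil markers 6 were higher and 6 lower (median 0.03), and Chil3 passed (-3.88, adjusted p = 0.000269 by limma). The medians of the duct, T cell, endothelial and hepatocyte lists lay between -0.22 and -0.08, with none of their genes passing. Their largest differences were those of Car2 (0.63) and Krt18 (-0.62) among duct genes, Cd3e (-1.30) and Cd247 (0.51) among T cell genes, Kdr (-1.22) and Eng (-0.59) among endothelial genes, and Hnf4a (-0.71) and Serpina1b (-0.61) among hepatocyte genes. The part of these cell types in the values of the complement and acute phase genes was not tested.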

How the data were processed

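Islet RNA of 8 NOD.Scid pools was amplified, labelled with biotin and hybridised to Affymetrix arrays, per the labels' protocols. The authors deposited 1 table of probe set intensity values on a linear scale. How probe sets were summarised and scaled is not stated in the labels or headers. The log2 medians of the arrays spanned 0.208, so the deposited intensity values were used without further normalization. Gene names came from GEO's platform annotation, in which 34958 probe sets carry 1 symbol, 932 several and 9211 none.

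Values were analysed as log2(intensity + 2.155). Control probe sets were dropped, as were probe sets at or above the array median on fewer than 2 arrays. The probe set with the highest mean log2 value represented each gene, which left 16396 genes. Tests used limma 3.58.1 in R 4.3.3 (lmFit, eBayes with a variance trend), adjusted over all genes by Benjamini-Hochberg. The fits were tested on simulated data. With 1 pool per arm and day, p-values measure the spread between these arrays, and their number limits the precision.

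All members were named. From each list the text names passing genes, or else the largest 2 differences, and the 5 genes most like each member; others were chosen after their values were seen and are marked so. The members and lists were chosen with earlier results of these data known. Alternatives were other pseudocounts, normalizations, filters and probe set rules, no variance trend, no day block, the spiked-control split as a block or its high arrays alone, and leaving out arrays.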

Additional observations from a re-analysis of the deposited data

How the results depend on the processing

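Under the 13 to 17 alternatives of each comparison, of 648 recomputed member values 617 kept direction and side of the threshold, 30 reversed, and 1 newly passed (the C1qc slope after cyclic loess, 0.635 per day). The Saa3 and Serpina3n arm differences reversed under none, at 0.777 to 1.551 and -1.079 to -0.56 (log2), with adjusted p from 0.092 to 1 and from 0.429 to 1. The cause of the changes below was not tested.

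For the arms, 18 genes passed, against 8 with 4 times the pseudocount, 1 after quantile normalization, 10 without the filter, 1 with probe sets averaged, 11 without the variance trend, 0 without the day block and 33 to 69 when a day was left out. The C1qb difference turned to 0.166 after quantile normalization and 0.24 after cyclic loess, and the Lcn2 difference to 0.089 after cyclic loess. Leaving out a day gave -0.171 to 1.241 for Cfb and -0.774 to 0.255 for Lcn2.

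Against untreated islets, leaving out an array gave -0.447 to 1.074 for Cfb and -0.055 to 1.155 for Lcn2 in the diabetogenic arm, where both turned without day 8. With the spiked-control split as a block no gene passed by limma in either arm, and the C1qb, C1qc and Serping1 differences shrank (C1qc to 0.205 in the diabetogenic arm and 0.983 in the protected arm). In the protected arm 1 gene passed after quantile normalization, 1 with every probe set tested and 0 to 2 when an array was left out.

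For the slope on day, 1 member and 13 genes passed after cyclic loess, 2 genes without the variance trend, 14 on the arrays with high spiked controls and 0 to 7 when an array was left out. Leaving out an array gave slopes of -0.001 to 0.338 for Cfb and -0.104 to 0.271 for Lcn2, both turning without the diabetogenic array of day 8.

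The difference in slope turned for Saa3 to -0.028 with the smaller pseudocount and -0.001 after median centring, and for Serpina3n to -0.062 after quantile normalization. On the arrays with high spiked controls it was 0.065 for Serping1 and -0.021 for Serpina3n, with 9 genes passing. Leaving out an array gave -0.945 to 0.186 for C1qa, -0.066 to 0.418 for C1qb, -0.944 to 0.337 for C1qc, -1.986 to 0.692 for Cfb, -2.108 to 0.636 for Lcn2, -1.595 to 0.281 for Saa3, -0.011 to 0.094 for Serpina3n and -1.249 to 0.03 for Serping1, with 0 to 3 genes passing.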
